A study of Mus musculus with 2 samples.

Results

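Among nuclei of the mouse amygdala, a set that carries RNA of the dopamine receptor gene Drd2 together with Sema3e and Alk was described in a wild-type library (WT) and a Sema6d-/- library (KO). A nucleus belonged to it with at least 500 detected genes, at most 5% mitochondrially encoded UMIs (unique molecular identifiers, each 1 counted RNA molecule), at least 1 UMI of Drd2 and at least 2 each of Sema3e and Alk. It also had to hold at most 1 UMI of Htr4 and none of Slc17a7 or Slc17a6, the vesicular glutamate transporter genes of excitatory neurons. Members were thus chosen by the measured UMIs of Drd2, Sema3e, Alk, Htr4, Slc17a7 and Slc17a6. The rule gave 285 of 18924 nuclei, 202 of 10791 in the WT library and 83 of 8133 in the KO library. These Drd2 Sema3e Alk GABA neurons are called members here.

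Both libraries came from amygdalae of C57BL6/J mice aged 6 to 8 weeks, 1 library per genotype, made from droplets of single nuclei with the 10x kit that reads transcripts near the 5′ end (v2). Sema6d-/- denotes loss of both alleles of Sema6d, a transmembrane semaphorin that binds plexins. The sources used here do not give the number or sex of the animals in a library, or the deleted stretch of Sema6d. No difference was tested, since each genotype has 1 library, and genotype, animal, dissection and library preparation cannot be told apart.

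Drd2 encodes the dopamine D2 receptor, which couples to inhibitory G proteins and in striatal projection neurons marks the indirect pathway, together with the adenosine receptor gene Adora2a and the enkephalin precursor Penk. Sema3e encodes a secreted semaphorin that signals through plexin D1, and Alk a receptor tyrosine kinase activated by the ALKAL ligands. The amygdala holds several kinds of GABA neuron, among them projection neurons of the central nucleus, intercalated cell clusters with Foxp2, and interneurons, and it borders the striatum.

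The bases before the starts of Drd2 and Sema3e are printed because the rule that chose the members reads these genes. Alk is read too, but its window begins within an annotated transcript and is not shown. They come from RefSeq on GRCm38.p6, 5′ to 3′ on the plus strand, at chr9:49340153-49340359 for Drd2 (207 bases, ended where an annotated transcript begins) and chr5:14025026-14025275 for Sema3e (250 bases). Capitals mark GC boxes, GGGCGG on either strand, a motif chosen after the sequences had been read.
Drd2: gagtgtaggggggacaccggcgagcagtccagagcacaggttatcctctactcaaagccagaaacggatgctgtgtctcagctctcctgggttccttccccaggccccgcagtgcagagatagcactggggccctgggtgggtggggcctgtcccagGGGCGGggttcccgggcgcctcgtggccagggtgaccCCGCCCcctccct
Sema3e: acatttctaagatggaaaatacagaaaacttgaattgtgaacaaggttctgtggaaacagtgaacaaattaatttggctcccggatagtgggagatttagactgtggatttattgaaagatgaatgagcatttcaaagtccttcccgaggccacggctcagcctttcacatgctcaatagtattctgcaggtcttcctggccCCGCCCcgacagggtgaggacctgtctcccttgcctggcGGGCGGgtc
Each window held 2 GC boxes, and of 32851 RefSeq promoters 26.0% held at least 1 in 207 bases and 32.7% in 250 bases. The share of promoters with at least 2 was not counted. The Drd2 window had 67.6% G and C against a median of 51.7% over all promoters, and the Sema3e window 48% against 52.4%. Neither held the forkhead motif TGTTTAC, the MEIS motif TGACAG or the retinoid half-site AGGTCA on either strand, which stood in 2.66%, 13.5% and 11.8% of promoters at 207 bases and in 3.17%, 15.9% and 14.0% at 250 bases. These are matches of letters only, and binding was not measured.

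The levels of the rule's genes describe the choice and are not results. A WT member held 1 to 24 Drd2 UMIs (median 6.5), 2 to 33 of Sema3e (median 6) and 2 to 41 of Alk (median 5.5). A KO member held 1 to 18 Drd2 UMIs (median 6), 2 to 30 of Sema3e (median 6) and 2 to 16 of Alk (median 5). Levels below are the UMIs of a gene summed over the members of a library relative to the total (CPM, counts per 1e+06 UMIs), out of 1820626 UMIs in WT and 733621 in KO. Brackets hold exact 95% intervals, which cover counting error only. Drd2 stood at 796 CPM in WT (755 to 838) and 713 in KO (653 to 777), Sema3e at 778 (738 to 819) and 797 (734 to 865), and Alk at 811 (770 to 854) and 661 (604 to 723).

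Nuclei at the edge of the rule were close to members in some genes and not in others. The 26 WT members with exactly 2 Sema3e UMIs had 1205 CPM of the phosphodiesterase gene Pde7b, and the 32 WT nuclei with 1 Sema3e UMI that met all else had 1202. In the KO library these values were 1229 CPM over 8 members and 1367 over 13 nuclei. The heparan sulfate proteoglycan gene Gpc6 stood at 909 CPM in the 32 WT members with exactly 2 Alk UMIs and at 492 in the 67 nuclei with 1, and in KO at 1224 over 14 members and 595 over 26 nuclei. Without Alk UMIs but with all else met there were 425 WT and 175 KO nuclei, with 245 and 257 CPM of Gpc6 and 1616 and 1419 CPM of Pde7b.

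Members carried GABA neuron genes and almost no RNA of excitatory neurons. The glutamate decarboxylase genes stood at 291 CPM in WT and 324 in KO for Gad1, and at 321 and 309 for Gad2, although 7 WT and 3 KO members had no UMI of either. The 10 glutamate neuron genes, of which the rule used 2, summed to 20.3 CPM in WT and 12.3 in KO. Of the label's 5 markers, Dach1, a transcription factor gene that the rule did not use, had a median of 8 UMIs per WT member and 9 per KO member. Pde7b, also unused, had medians of 15 and 11.

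Relative to other GABA nuclei, genes shared by striatal projection neurons were high in members, and those of D1 projection neurons were low. The 17 shared projection neuron genes summed to 28694 CPM in WT members and 26371 in KO members, against 18502 and 15420 in other GABA nuclei. In D2 striatal-type nuclei, described below and chosen on Rgs9 of this list, they summed to 29172 and 28356 CPM. The 10 D1 genes summed to 130 and 166 CPM, against 477 and 508 in other GABA nuclei and 145 and 133 in D2 striatal-type nuclei. Drd1 itself had 26 UMIs over all WT members and 23 over all KO members. The 16 central amygdala genes summed to 582 and 720 CPM in members, against 848 and 870 in other GABA nuclei and 500 and 484 in D2 striatal-type nuclei. The cadherin gene Cdh9 gave 215 and 277 CPM of the members' sums. Others of that list were near 0, with 6 and 1 UMIs of Prkcd, 9 and 2 of Crh, and 6 and 0 of Tac2. Dach1 and Pde7b, the markers of the label that the rule did not use, and the GABA genes were thus present, and the members also carried the D2 projection neuron genes Penk and Adora2a.

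The members were a smaller share of the KO library. WT members made up 1.87% (1.62 to 2.15) of the library's nuclei and KO members 1.02% (0.814 to 1.26), and the KO share was 0.545 times the WT share (0.417 to 0.707). Of GABA nuclei, which had at least 2 UMIs of Gad1 and Gad2 together and no Slc17a7 or Slc17a6, they were 186 of 4828 or 3.85% in WT (3.33 to 4.43) and 74 of 2847 or 2.60% in KO (2.05 to 3.25). Of nuclei with Drd2 and without Slc17a7 or Slc17a6 they were 9.07% of 2228 in WT (7.91 to 10.3) and 7.84% of 1058 in KO (6.30 to 9.63). The intervals of the first and second shares did not overlap, and those of the third did. They cover counting error only, so their overlap is no test between genotypes. GABA nuclei were themselves fewer in the KO library, and the part of dissection in these shares was not tested.

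**Figure D1:**
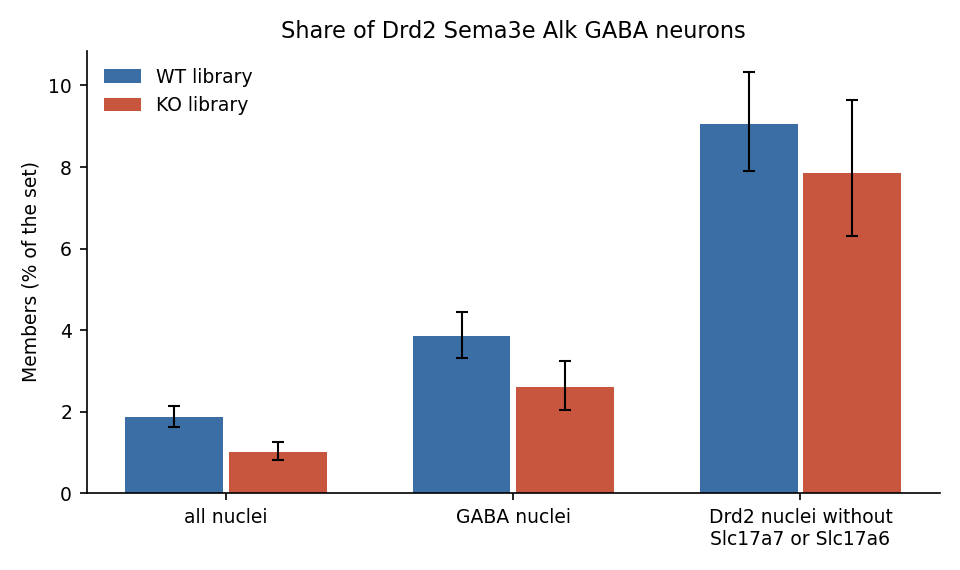
Share of members (percent, linear axis from 0) among all nuclei, GABA nuclei and Drd2 nuclei without Slc17a7 or Slc17a6, in the WT library (blue) and the KO library (red). Bars are shares and error bars exact 95% binomial intervals, and the KO share is 1.02% against 1.87% of all nuclei but 7.84% against 9.07% of Drd2 nuclei.

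Depth was alike in members of both libraries, while signs of library quality differed. Median UMIs per member were 7616.5 in WT and 7764 in KO, and median genes 3044 and 3069. The median mitochondrially encoded share was 0.710% and 0.381%. Malat1, a nuclear long noncoding RNA, stood at 36551 CPM in WT members and 53840 in KO members, a log2 ratio of KO over WT of 0.56 (0.54 to 0.58), and at 0.38 on that scale in other GABA nuclei. The libraries shared 128 barcodes, of which 1 fell on a WT member and 2 on KO members. Scrublet called 16 WT and 9 KO members doublets, and they were kept, as the rule sets no doublet filter.

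Most members lay in 1 cluster when all nuclei without called doublets were clustered. That cluster held 144 of 186 clustered WT members (77.4%) and 58 of 74 in KO (78.4%), and members were 46.8% and 43.3% of its nuclei. Of 30 clusters it had the highest Pde7b in both libraries, at 2577 CPM in WT and 1902 in KO. The next highest clusters were close, at 2441 CPM in WT and 1895 in KO. Dach1 ranked 2 of 30 there in both libraries, at 1178 CPM in WT and 1303 in KO. Alk ranked 3 of 30 there in both, at 859 and 613 CPM, against 1696 and 1734 in the highest cluster. The members' cluster also had the highest Sema3e in both libraries. Drd2 ranked 1 there in WT and 2 in KO, at 963 and 924 CPM, though the rule chose on Alk, Sema3e and Drd2. The 58 WT and 25 KO members outside the members' cluster, called doublets included, had a median of 10960.5 and 11125 UMIs, against 7119.5 and 7421.5 inside. Some results below are therefore also given for this leading cluster.

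**Figure D2:**
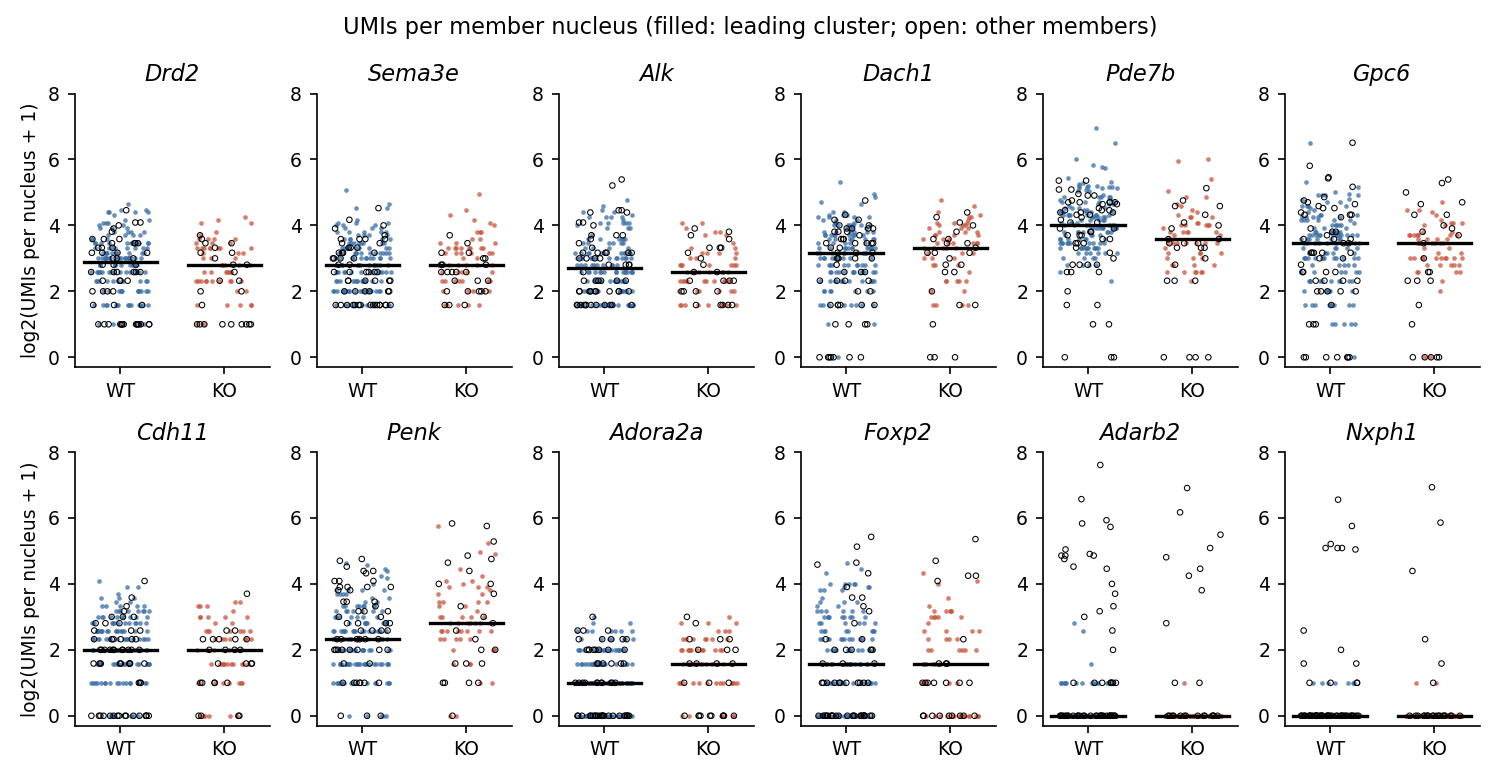
UMIs of 12 genes per member nucleus on a log2(UMIs + 1) axis, in WT and KO, with filled points for members in the leading cluster, open points for the other members and bars for medians. Adarb2 and Nxph1 have medians of 0 and their high values lie in open points, while Dach1, Pde7b and Gpc6 are spread over nearly all members.

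Some interneuron genes in the sums came mostly from members outside the leading cluster. Nxph1, a neurexin ligand gene of medial ganglionic eminence interneurons, had 336 UMIs in WT members, of which 7 lay inside the cluster, and 207 in KO members, of which 2 did. A single nucleus held 27.7% of the WT and 58.5% of the KO Nxph1 UMIs. Adarb2, a marker of caudal ganglionic eminence interneurons, had 764 and 355 UMIs, of which 27 and 1 lay inside. Outside, 28 of 58 WT and 11 of 25 KO members held Adarb2 UMIs. Sox6 had 134 and 122, with 4 and 1 inside, and the receptor gene Erbb4 1103 and 708, with 51 and 5 inside. Sst, the somatostatin gene, had 79 UMIs in KO members, of which 49 were in 1 nucleus.

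Members were then set against 3 sets of other nuclei of the same library, as a description, since the rule chose them on genes that vary together with others. The sets were other GABA nuclei (4642 WT, 2773 KO), D2 striatal-type nuclei with Drd2, Adora2a and at least 2 UMIs of Rgs9 (1178 WT, 610 KO), and Drd2 nuclei with at least 2 UMIs each of Htr4 and Kctd8 (391 WT, 239 KO). The sets share nuclei with each other and none with the members. At least 2-fold above other GABA nuclei in both libraries stood 33 of 5991 genes (0.551%), and at least 2-fold below 143 of 6536 (2.19%).

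Zp3r, Frem2 and Kremen1 stood highest above other GABA nuclei, apart from genes of the rule. Zp3r, a zona pellucida receptor gene of the complement control family, was at 46.1 CPM in WT members and 32.7 in KO members, against 6.61 and 4.52 in other GABA nuclei, log2 ratios of 2.80 and 2.85. Kremen1, a receptor for the Wnt inhibitor Dickkopf, was at 121 and 120 CPM, with log2 ratios of 2.14 and 2.36. The extracellular matrix gene Frem2 had ratios of 2.15 and 2.32, Tcf7l1, a transcription factor of the Wnt pathway, 2.43 and 1.72, and Mro 1.67 and 1.99. Cdh11, a cadherin gene, was at 446 and 382 CPM with ratios of 1.66 and 1.51, and Gpc6 at 1354 and 1198 CPM with 1.71 and 1.47. The secreted Tll1 protease, the scavenger receptor gene Colec12 and the orphan receptor gene Gpr149 followed, with ratios of 1.33 to 1.83. These genes were named because they were higher in both libraries. Some were higher still in other clusters. Zp3r ranked 2 of 30 in the leading cluster in both libraries, at 51.3 and 45.0 CPM, against 107 and 73.3 in the highest cluster. Kremen1 ranked 2 there in WT and 3 in KO, and Gpc6 and Cdh11 each ranked 3 in WT and 4 in KO.

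A semaphorin gene and a pair of serotonin receptor genes also stood above other GABA nuclei. Sema5b, a transmembrane semaphorin gene, was at 176 CPM in WT members and 169 in KO members, log2 ratios of 1.38 and 1.55 over other GABA nuclei. Htr2a, which encodes the serotonin 2A receptor, was at 126 and 117 CPM, with ratios of 1.25 and 1.28. Htr7, which encodes a receptor that raises cyclic AMP, was at 75.8 and 94.1 CPM, with ratios of 1.06 and 1.08. Its level went with Alk, a gene of the rule. Nuclei without Alk UMIs that met all else had 4.19 CPM of Htr7 in WT and 10.4 in KO. Those without Sema3e UMIs had 80.6 and 55.3, and those without Drd2 UMIs 63.3 and 78.3. Of the 6 compared serotonin receptor genes, Htr4 aside, Htr2a and Htr7 were at least 2-fold higher in both libraries. Htr1f was lower, with -1.45 and -2.03. Of 18 ephrin, Slit and netrin guidance genes none was higher and 1 lower, the ephrin receptor gene Epha3, with -1.11 and -1.67. Below other GABA nuclei, apart from Htr4, which the rule limits, stood the transcription factor gene Ebf1, with ratios of -3.87 and -2.11, the sulfatase gene Sulf1 with -2.67 and -3.67, and the follistatin-like gene Fstl5 with -2.30 and -2.04. Inside the leading cluster Ebf1 was at -5.12 and -5.73 and Fstl5 at -5.13 and -5.44.

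**Figure D3:**
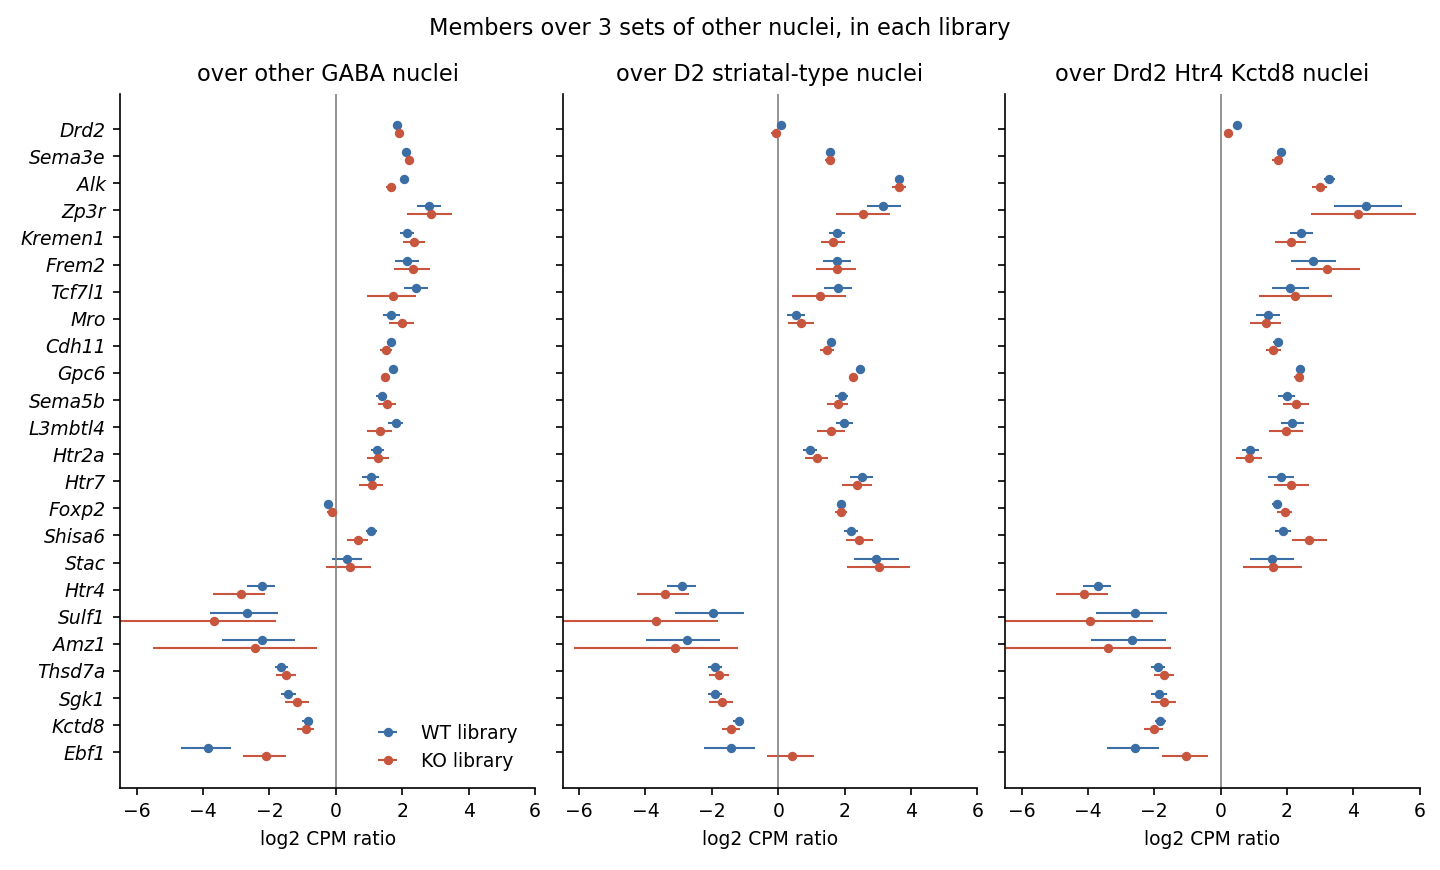
Log2 ratio of CPM in members over other GABA nuclei, D2 striatal-type nuclei and Drd2 Htr4 Kctd8 nuclei of the same library, WT in blue and KO in red, with exact 95% intervals (some run past the axis). Zp3r, Kremen1, Cdh11 and Gpc6 lie above 0 against all 3 sets in both libraries, whereas Foxp2 is near 0 against other GABA nuclei and at 1.90 against D2 striatal-type nuclei.

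Against D2 striatal-type nuclei, 81 of 5991 genes (1.35%) were at least 2-fold higher in members of both libraries and 36 of 6093 (0.591%) lower. Foxp2, a forkhead gene of intercalated cells and D1 neurons, was at 464 and 489 CPM in members, with ratios of 1.90 and 1.90. Gpc6 had ratios of 2.45 and 2.24, Htr7 of 2.51 and 2.38, and Shisa6, an AMPA receptor auxiliary gene, of 2.19 and 2.44. Stac, an adaptor of calcium channels, had 2.96 and 3.03, and Fhod3, a formin gene, 2.0 and 1.89. Penk was lower in members, with ratios of -0.77 and -0.70, and so was Rgs9 with -0.38 and -0.59, though Rgs9 chose the D2 set.

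Some genes above the D2 set lost or turned that direction inside the leading cluster. Adarb2 had ratios of 2.02 and 2.57 over all members and -2.22 and -5.18 inside the cluster. Grik1, a kainate receptor gene, had 1.86 and 3.61 over all members, and inside -2.88 in WT and at most -1.64 in KO, where no UMI was found and 3 counts set the limit. Foxp2 had 2.10 and 1.91 inside, and Gpc6 2.48 and 2.28. Lower than in the D2 set, in all members, were Sgk1, a serum- and glucocorticoid-induced kinase gene, with -1.90 and -1.71, Thsd7a, a thrombospondin repeat gene, with -1.90 and -1.78, and the homeobox gene Zfhx3 with -1.28 and -1.54. Inside the cluster these stood lower still, for Sgk1 at -2.86 and -2.72.

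Against Drd2 Htr4 Kctd8 nuclei, 57 of 5991 genes (0.951%) were at least 2-fold higher in members of both libraries and 57 of 6074 (0.938%) lower. Htr4 and Kctd8 chose that set and are no result. Zp3r was highest above it, with log2 ratios of 4.37 and 4.15, then Alk, a rule gene, with 3.28 and 2.98, and Frem2 with 2.77 and 3.20. Bach2, a transcriptional repressor gene, had ratios of 1.77 and 1.82, and Foxp2 1.69 and 1.93. Sgk1, at -1.85 and -1.71, and Thsd7a, at -1.88 and -1.71, stood below this set as below the D2 set.

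Within members, 6454 genes with at least 50 UMIs over both libraries and a mean of at least 20 CPM were compared between KO and WT. At least 1.5-fold higher in KO were 578 of them (8.96%), and at least 1.5-fold lower 349 (5.41%), together 927 (14.4%). Past 2-fold stood 91 (1.41%) and 69 (1.07%). The median log2 ratio was 0.03, with 3450 genes above 0 and 3004 below, and 90% of genes lay between -0.60 and 0.73. The split turned with the scaling, to 423 higher and 507 lower under TMM and 393 and 543 under median-of-ratios. Of genes with at least 500 UMIs, 297 lay above 0 and 507 below, with a median of -0.08. Counts of genes in the lists below are to be read against these shares.

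Sema6d was at 995 CPM in WT members (950 to 1041) and 979 in KO members (908 to 1053), a log2 ratio of -0.02 (-0.15 to 0.10). Tags near the 5′ end need not fall in the deleted stretch, so this level does not check the labels. Members had more Sema6d than D2 striatal-type nuclei in both libraries, with ratios of 1.64 and 1.52.

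**Figure D4:**
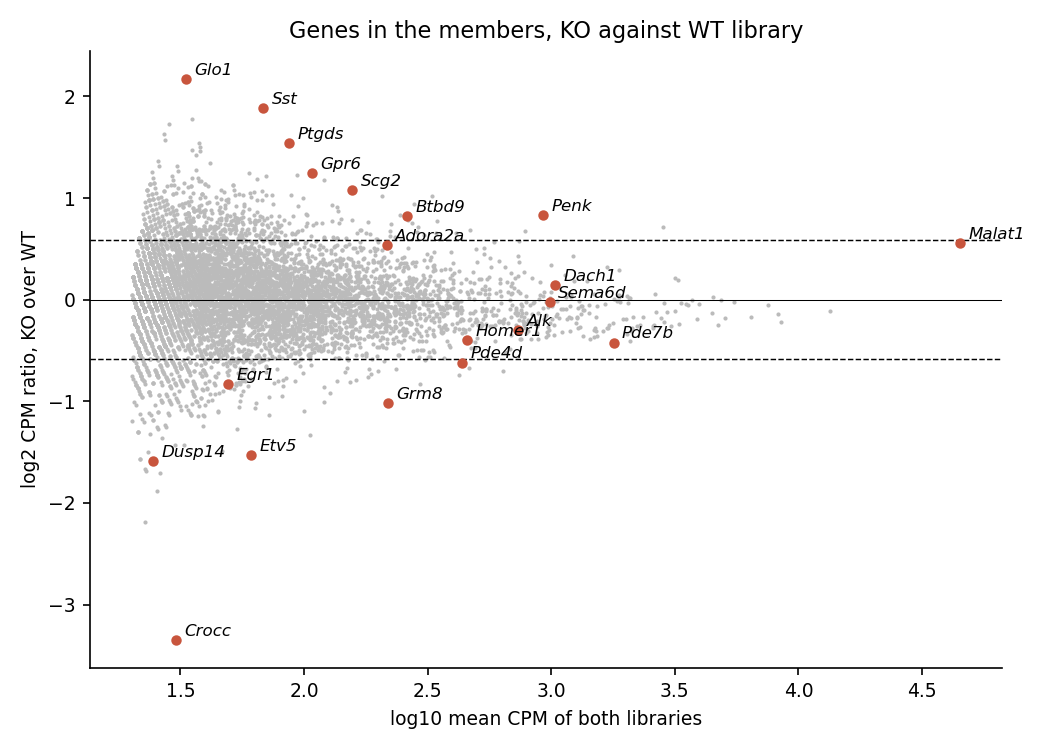
Log2 CPM ratio of KO over WT in members against log10 of the mean CPM of both libraries, 1 point per gene, with dashed lines at 1.5-fold and labelled genes in red. Penk and Gpr6 lie above the upper line, Crocc lies at -3.35, and Sema6d and Dach1 lie near 0.

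Among the 9 matched genes of D2 projection neurons, 7 could be compared without Drd2, a gene of the rule, of which 3 were at least 1.5-fold higher in the KO library and 1 lower. Penk was at 665 CPM (628 to 704) in the WT members and 1187 (1110 to 1269) in the KO members, with a log2 ratio of 0.84 (0.71 to 0.96). Gpr6, an orphan receptor gene of indirect pathway neurons, was at 63.7 and 151 CPM, a ratio of 1.25 (0.86 to 1.64). The third was Sp9, a transcription factor gene of this lineage, with 29 and 23 UMIs and a ratio of 0.98 (0.12 to 1.82). The lower gene was Reln, the secreted glycoprotein reelin, at 174 and 99.5 CPM and -0.80 (-1.19 to -0.43). Adora2a was at 176 and 256 CPM, a ratio of 0.54 (0.27 to 0.80).

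The list's median ratio without Drd2 was 0.54, against 0.16 over 6 genes in the leading cluster. Penk kept a ratio of 0.83 in the leading cluster, Gpr6 1.30 and Adora2a 0.65. The same comparison in D2 striatal-type nuclei gave 0.77 for Penk, 0.64 for Gpr6, 0.64 for Sp9 and -1.94 for Reln, the same directions, and whether their sizes differ was not tested. Over the alternatives Penk ranged from 0.74 to 0.90, Gpr6 from 0.92 to 1.30 and Sp9 from 0.52 to 1.27, and Reln was at -1.46 in the leading cluster.

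Of the 17 listed projection neuron genes shared by D1 and D2 cells, none was past 1.5-fold either way, with a median log2 ratio of -0.16 and 13 below 0. Pde10a, the phosphodiesterase of striatal projection neurons, was at 4682 and 4276 CPM, a ratio of -0.13, and Ppp1r1b, which encodes DARPP-32, at 190 and 262 CPM, a ratio of 0.47. Adcy5, the adenylyl cyclase that D2 receptors inhibit, and Gnal, its stimulatory G protein, had ratios of -0.20 and -0.23.

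Genes of dense-core granules and peptide processing lay mostly above 0. Of 12, all compared, 5 were at least 1.5-fold higher in KO and none lower, with a median of 0.31. The granins Scg2, at 101 and 213 CPM, and Chgb, at 56.0 and 131, had log2 ratios of 1.08 (0.76 to 1.40) and 1.22 (0.81 to 1.64). Chga had 1.03 and the secreted Vgf 1.0, with 46.1 against 94.1 and 65.9 against 132 CPM. The fifth, Cadps2, had 0.64 over all members but -2.11 in the leading cluster and -0.38 without the nucleus richest in it in each library. Pcsk2, the proprotein convertase that cleaves proenkephalin, was at 1030 and 987 CPM, a ratio of -0.06. In other GABA nuclei the ratios were 0.66 for Scg2, 0.33 for Chgb, 0.65 for Chga and 0.46 for Vgf.

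Peptide precursors other than Penk were scarce. Of 22, 5 could be compared, all above 0, and 2 of them were at least 1.5-fold higher in KO, Penk and Sst. Sst had 53 and 79 UMIs and a log2 ratio of 1.89, which was 0.31 in the leading cluster. Tac1, the substance P precursor of D1 neurons, was at 38.4 and 43.6 CPM. Among opioid receptors Oprd1, the delta receptor that enkephalins activate, was at 53.3 and 25.9 CPM, a ratio of -1.04 (-1.83 to -0.32), and Oprm1, the mu receptor, at 54.4 and 40.9 CPM, a ratio of -0.41 (-1.05 to 0.19).

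Of 20 semaphorin genes 8 could be compared, without Sema3e, a gene of the rule, with 1 at least 1.5-fold higher in KO and none lower. That gene was Sema5a, at 36.8 and 55.9 CPM, a log2 ratio of 0.60 (0.01 to 1.18), which was below 1.5-fold under TMM and median-of-ratios scaling, as these shift all ratios by -0.09 and -0.10. Sema5b had -0.06 and Sema3a, a secreted semaphorin, 0.30 (-0.08 to 0.68), which was -0.25 in the leading cluster. Of 11 plexin and neuropilin genes 5 could be compared. Nrp1, a coreceptor for secreted semaphorins, was at 73.6 and 36.8 CPM, a ratio of -1.0 (-1.65 to -0.40), the one gene of the list past 1.5-fold. Plxna4, a receptor of class 6 semaphorins, was at 283 and 293 CPM, a ratio of 0.05, and Plxna1, another such receptor, had 10 and 8 UMIs. Plxnd1, the Sema3e receptor, had 21 UMIs in WT members and 14 in KO members.

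The ligands of ALK were almost undetected in members. Alkal1 had no UMI in either library, which with 3 counts as the limit of a 0 allows up to 1.65 CPM in WT and 4.09 in KO, and Alkal2 had 2 UMIs in WT and none in KO. Ptprz1, a receptor phosphatase that binds pleiotrophin, was at 72.0 and 105 CPM, and Ptn, which encodes pleiotrophin, at 98.3 and 77.7, with log2 ratios of 0.54 (0.12 to 0.96) and -0.34 (-0.80 to 0.10). Ptprz1 was at -0.16 in the leading cluster.

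Phosphodiesterase genes, which break down cyclic nucleotides, lay below 0 in 13 of 14 compared, against 3004 of all 6454 genes. Abundant genes leaned that way, as 507 of 804 genes with at least 500 UMIs lay below 0. The list's sum was 11064 CPM in WT and 9291 in KO members, and 8317 and 7327 in other GABA nuclei. The list's median was -0.23. Only 1 phosphodiesterase gene was at least 1.5-fold lower, Pde4d, at 527 CPM in WT and 344 in KO, a log2 ratio of -0.62 (-0.82 to -0.42). Over the alternatives Pde4d ranged from -0.72 to -0.44. Pde7b stood at 2049 CPM (1984 to 2116) in the WT members and 1529 (1441 to 1622) in the KO members, with a log2 ratio of -0.42 (-0.52 to -0.33), and in other GABA nuclei its ratio was -0.55. Pde4b had -0.39 and Pde8b -0.50 in members, against -0.01 and -0.26 in other GABA nuclei. Pde4b was also lower in KO in Drd2 Htr4 Kctd8 nuclei, though not in D2 striatal-type nuclei. Pde9a, specific for cyclic GMP, was the exception at 39.5 and 90.0 CPM, a ratio of 1.19 (0.68 to 1.69).

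Postsynaptic density genes lay below 0 in 17 of 18 compared, with a median of -0.28 and 1 at least 1.5-fold lower, Shank1, at 34.1 and 21.8 CPM (-1.11 to -0.48 over the alternatives). The list's sum was 15516 CPM in WT and 13544 in KO members, and 14743 and 13613 in other GABA nuclei. Dlg2, a scaffold gene, was at 6833 and 6081 CPM, a log2 ratio of -0.17, and Homer1, a scaffold of metabotropic receptors, at 518 and 394 CPM, a ratio of -0.39 (-0.59 to -0.20). All 6 compared metabotropic glutamate receptor genes lay below 0, with a median of -0.28. The 7 genes of that list summed to 5903 and 5142 CPM in members, and to 6586 and 6039 in other GABA nuclei. Among them Grm8 was at 292 CPM in WT and 144 in KO, a ratio of -1.02 (-1.33 to -0.71), with alternatives from -1.12 to -0.62, and at -0.02 in other GABA nuclei. Grm5 was at 3305 and 3056 CPM, a ratio of -0.11.

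Of 40 activity-induced genes 10 could be compared, of which 9 lay below 0, 2 at least 1.5-fold lower and 1 higher, with a median of -0.31. Egr1, an immediate early transcription factor gene, was at 63.2 and 35.4 CPM, a log2 ratio of -0.83 (-1.51 to -0.21), which was -0.47 in thinned nuclei, and Dusp14, a phosphatase gene, at 36.8 and 12.3 CPM, a ratio of -1.58 (-2.77 to -0.57). The higher gene was Vgf, counted above. In other GABA nuclei Egr1 had -0.86, Dusp14 -1.30 and Homer1 -0.59, the same directions. The part of handling before nuclei were isolated was not tested.

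**Figure D5:**
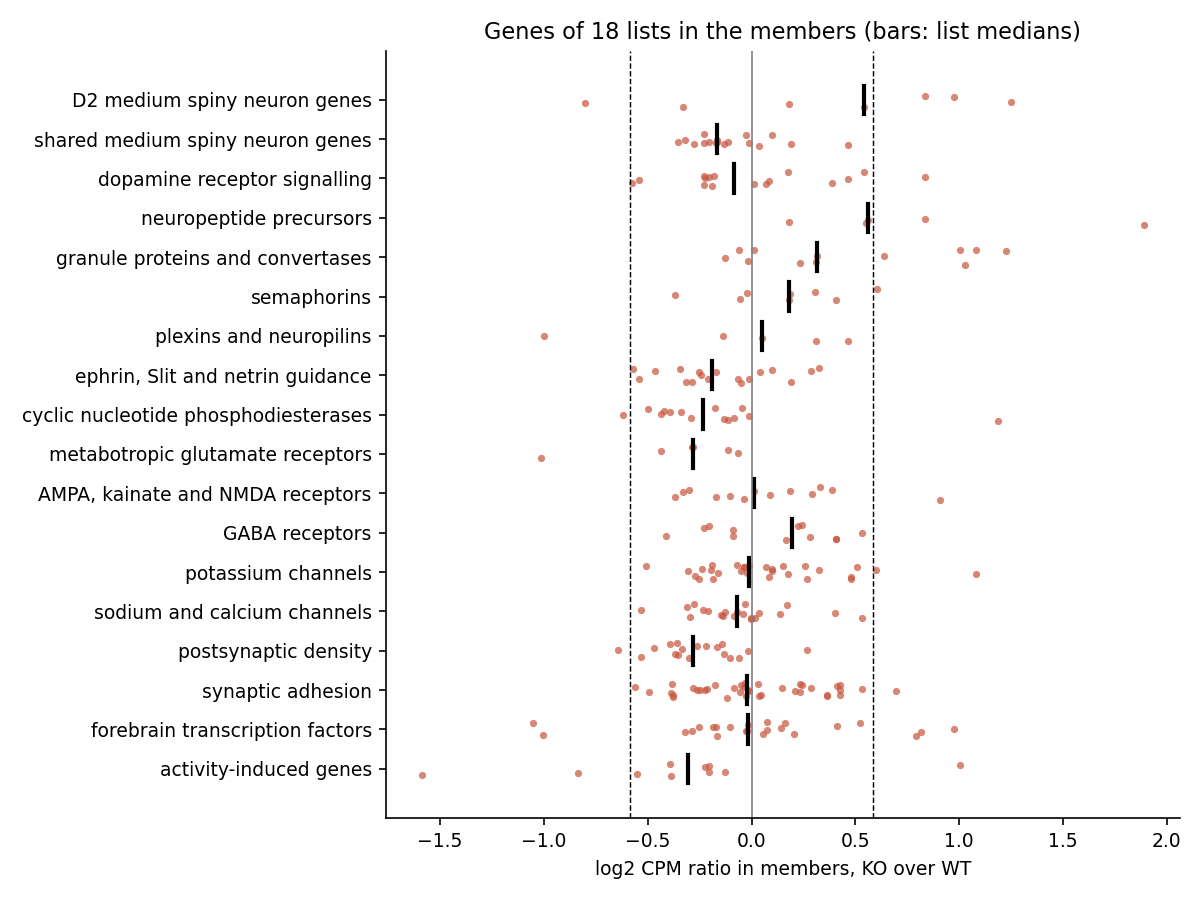
Log2 CPM ratio of KO over WT in members for the compared genes of 18 lists other than genes of the rule, 1 point per gene, with bars for list medians and dashed lines at 1.5-fold. Granule genes lie mostly above 0 with a median of 0.31, and phosphodiesterase, metabotropic receptor and postsynaptic density genes mostly below, with medians of -0.23, -0.28 and -0.28.

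Ion channels and ionotropic receptors stood near the median of all genes. Of 29 compared potassium channel genes 2 were at least 1.5-fold higher, Kcnip1 and Kcnh7, whose log2 ratios of 1.08 and 0.60 became -1.65 and -1.05 in the leading cluster, and of 21 sodium and calcium channel genes none passed either way. Of 13 AMPA, kainate and NMDA receptor genes 1 was higher, Grik1, whose UMIs lay outside the leading cluster except for 5 in WT. Gria1 and Gria2, both AMPA receptor subunits, had log2 ratios of -0.37 (-0.48 to -0.26) and 0.18 (0.08 to 0.29). Of the 12 compared GABA receptor genes of the list none was past 1.5-fold, with a median of 0.19. Of 6 serotonin receptor genes, Htr4 aside, 2 were lower, Htr1d with 66 and 11 UMIs, a ratio of -1.27 (-2.34 to -0.34), and Htr1f with -0.72 (-1.33 to -0.16), which was 0.23 at a minimum of 1 UMI of Sema3e and Alk, while Htr2a had -0.11 and Htr7 0.31. The cannabinoid receptor gene Cnr1 was at 595 and 889 CPM, a ratio of 0.58 (0.44 to 0.72), 0.69 in the leading cluster and -0.02 in other GABA nuclei. It was also higher in KO in D2 striatal-type nuclei and in Drd2 Htr4 Kctd8 nuclei. Log2 ratios of leading-cluster members over the latter were 1.38 in WT and 1.61 in KO. Whether the rise differs between these sets was not tested.

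Of 23 compared forebrain transcription factor genes, with a median of -0.02, 3 were at least 1.5-fold higher, Sp9, Tshz2 and Npas3, and 2 lower, Meis1 and Nfia. Nfia, a nuclear factor I gene also high in glia, had -1.05 over all members, with only 5 WT and 0 KO UMIs in the leading cluster. Tshz2 had 0.82 over all members and 2.35 in that cluster, there with 2 and 4 UMIs. Dach1 had a log2 ratio of 0.14 (0.02 to 0.26), Foxp2 0.08 (-0.11 to 0.26), Meis2 -0.03 and Foxp1 -0.17. Meis1, a homeobox gene related to Meis2, was at 161 CPM in WT and 80.4 in KO, a ratio of -1.01 (-1.43 to -0.60), against -0.25 in other GABA nuclei and -0.09 in D2 striatal-type nuclei. Whether these ratios differ was not tested.

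The largest single ratios came from genes with few UMIs or with the same direction elsewhere. Crocc, which encodes the ciliary rootlet protein rootletin, had 101 UMIs in WT members and 4 in KO members, a log2 ratio of -3.35 (-5.25 to -1.95), and -1.69 in other GABA nuclei. Etv5, an ETS transcription factor gene downstream of growth factor signalling, was at 90.6 and 31.4 CPM, a ratio of -1.53 (-2.23 to -0.90), and -0.71 in other GABA nuclei. Glo1, the glyoxalase gene, had 22 and 40 UMIs, a ratio of 2.17 (1.39 to 2.99), and 1.6 in other GABA nuclei. Its neighbour Btbd9 was at 188 and 333 CPM, a ratio of 0.82 (0.58 to 1.06), and 1.0 in other GABA nuclei, and on mm10 these genes span chr17:30584936-30626871 and chr17:30215524-30576488. Plce1, a phospholipase gene, with 68 and 6 UMIs, had -2.19 in members, -1.46 in the leading cluster and -0.43 in other GABA nuclei.

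Genes of the glial lists were present, some of them in most members. Of the 144 WT members in the leading cluster, 137 held UMIs of Slc4a4, of the astrocyte list. Lhfpl3 and Tnr, of the precursor list, were found in 105 and 122 of them. The sums below thus do not measure glial RNA alone. The 10 myelin genes summed to 519 CPM in WT members and 571 in KO members, the 10 astrocyte genes to 1286 and 1386, and the 8 oligodendrocyte precursor genes to 983 and 770. The 9 microglia genes summed to 53.8 and 54.5 CPM and the 11 vascular and meningeal genes to 4.39 and 17.7, with 7 and 6 of them at 0, among them Cldn5 and Flt1. Ptgds, the prostaglandin D synthase of oligodendrocytes and meninges, was at 44.5 and 129 CPM, a log2 ratio of 1.54 (1.10 to 1.99), and 2.0 in other GABA nuclei. Mbp, the myelin basic protein gene, had -0.47 (-0.77 to -0.18). The part of glial RNA, of Malat1 level and of the mitochondrial share in the gene ratios was not tested.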

How the data were processed

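Nuclei were profiled in 1 WT and 1 KO library. The deposited matrices hold raw UMI counts of 32285 gene identifiers per barcode, made by the authors with Cell Ranger 6.0.0 against mm10, per the submitters' processing notes, with annotation and intron setting not stated. The libraries held 85124128 and 60402979 UMIs in 11060 and 8666 barcodes, of which 269 and 533 were left out for fewer than 500 genes or more than 5% mitochondrially encoded UMIs. Symbols matched 32158 identifiers, and positions are those of GENCODE M21. Promoter windows are those of RefSeq.

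UMIs of members and of each comparison set were summed per library and expressed as CPM, with exact 95% Poisson (conditional, for ratios) and Clopper-Pearson intervals, computed with scipy 1.17.1, numpy 2.4.6 and pandas 2.3.3 in Python 3.11.15 and tested on simulated data. With 1 library per genotype no test was made, and a gene counted as higher or lower past 1.5-fold. Clusters used scanpy 1.11.5, Scrublet, 2000 variable genes, 30 components, 15 neighbours and Leiden resolution 1.0 (leidenalg 0.10.2), with called doublets removed and no integration. TMM scaling came from edgeR 4.0.16 in R 4.3.3.

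Members and the 38 gene lists were chosen with earlier results of these data known. Named were the rule's genes, the label's markers, Sema6d, the 4 most abundant and the extreme genes of each list, the 10 highest and 10 lowest KO over WT ratios, the highest and lowest ratios over each comparison set, and the 10 genes with the highest Fano factor. Mitochondrially encoded, Y-linked and unnamed genes and Xist were left out, and other named list genes were picked after their values were seen. Genes of the rule stay in the lists' sums but not in their counts or medians. Some other genes of the lists are not reported here and were taken out of the lists' counts, medians and sums, but not out of the counts over all genes. Alternatives varied the gene minimum, doublets, the UMI thresholds, scaling, the level filter, the fold and depth (nuclei thinned to 4000 UMIs).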

Additional observations from a re-analysis of the deposited data

How the results depend on the processing

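Alternatives for members in the leading cluster, for the richest nucleus left out and for shared barcodes were chosen after seeing the data. The share ratio of 0.545 ranged from 0.523 to 0.602 over all alternatives. The shares themselves moved to 2.97% in WT and 1.57% in KO with 1 UMI of Sema3e and Alk, to 1.43% and 0.750% with 3, and to 1.39% and 0.738% in the leading cluster. Genes at least 1.5-fold higher in KO numbered 339 with 1 UMI of Sema3e and Alk, 367 in the leading cluster and 259 in thinned nuclei. Genes higher and lower were 2421 and 1460 at a minimum of 1 UMI in each library, 64 and 41 at 200 UMIs, and 91 and 69 past 2-fold, and 543 were lower under median-of-ratios scaling. The D2 projection neuron median, without Drd2, was 0.16 in the leading cluster. With 1 UMI of Sema3e and Alk, genes 2-fold below the sets numbered 95 (other GABA), 22 (D2) and 26 (Drd2 Htr4 Kctd8). In the leading cluster they numbered 393, 150 and 254, and those above other GABA nuclei 67. Over all members the numbers below were 143 of 6536, 36 of 6093 and 57 of 6074, and above other GABA nuclei 33 of 5991. The counts of the 2 alternatives are given without the number of genes compared and are no shares. Among named genes past 1.5-fold over all members, some KO over WT ratios reversed in the leading cluster. They were Nxph1 -0.46, Sox6 -0.65, Kcnip1 -1.65, Kcnh7 -1.05, Cadps2 -2.11, Ptprk 0.025 and Erbb4 -2.0, on few UMIs except for Kcnh7 and, in WT only, Erbb4. Nfia (5 and 0 UMIs) and Kcnmb2 (0 and 1) gave no ratio there. In thinned nuclei they were Nxph1 -0.13, Kcnmb2 -0.33, Ptprk 0.25, Cadps2 -0.068 and Erbb4 -0.071, and Nxph1 was also -0.062 with 3 UMIs and -0.19 without its richest nucleus, Cadps2 -0.30 without called doublets and -0.38 without its richest nucleus, and, with 1 UMI, Nfia 0.10 and Htr1f 0.23. Ratios over the D2 set that reversed in the leading cluster were, in WT and KO, Adarb2 -2.22 and -5.18, and Grik1 -2.88 and at most -1.64. Kcnmb2 was at most -0.60 in WT and, on 1 UMI, -1.45 in KO, and Pde3a was -2.09 in WT. Values given as at most are limits from 0 UMIs. Apart from construction (fewer nuclei or genes), the cause was not tested. No paired analysis was possible because each genotype has 1 library and the labels give no replicate numbers. The 83 KO members limit precision, and a gene at 20 CPM there rests on about 15 UMIs.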

Other observations

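Nuclei with at least 2 UMIs each of Sema3e and Alk but no Drd2, with all else met, numbered 157 in WT and 113 in KO, so that in KO they outnumbered the 83 members. They carried 1179 and 814 CPM of Foxp2 and 281 and 333 CPM of Penk, and only 1.27% and 1.77% of them lay in the members' leading cluster. Nuclei that met all else but had at least 2 Htr4 UMIs numbered 65 and 31, with 46.2% and 38.7% in that cluster and medians of 10724 and 11240 UMIs.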
